A study of Ceratina calcarata with 12 samples.

Results

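The 100 most abundant transcripts in the heads of newly eclosed female Ceratina calcarata, the small carpenter bee, were taken as the 100 gene models with the highest mean level over 6 RNA-seq libraries, of 20693 gene models counted. Levels are given in CPM, the count of a gene model per 1000000 counts of its library. The 4 most abundant cuticle genes (Ccalc.v2_000573, Ccalc.v2_004804, Ccalc.v2_009922 and Ccalc.v2_009923) were left out before ranking. All 100 members passed the filter on low counts, so all 100 are described below. The members were chosen by their mean CPM over both treatments, so their levels, ranks and share of the counts are given as a description.

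The study asked how the presence of the mother during development bears on gene regulation in her adult offspring. In the "care" treatment the mother stayed in the nest from egg to adult offspring. In the "no care" treatment she was removed once the brood had been provisioned, so both groups received the pollen she had laid in. Each treatment had 3 RNA libraries, each made from the pooled heads of 3 newly eclosed adult females from different nests, which were collected in sumac stems and reared in the laboratory. Error between libraries is therefore error between pools, and a head holds brain, compound eyes, muscle, fat body and glands together.

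In a bulk library of this kind, a small set of genes usually takes a large part of the reads. Such genes commonly serve the work of every cell, such as energy supply in mitochondria and protein synthesis, or the defining work of a large tissue. In an insect head these tissues include the photoreceptors, which carry opsins (the light-absorbing receptors of vision), neurons, which release transmitter at synapses, and the muscles that move mouthparts and antennae. Reads were counted per gene model and not per base, so the order given here is one of read counts and not of molecules.

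Library totals ran from 26752341 to 31894020 counts. The lowest value of any member in any library was 684 counts, or 23.7 CPM, and 97 members had at least 400 CPM in every library. Counting error was small at these depths. The coefficient of variation (CV, the SD as a percent of the mean) that counting alone would give was 0.469% for the median member and at most 0.605%, against a median of 3.62% over the 10763 gene models tested.

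Names were at hand for part of the members. A Drosophila reciprocal best hit named 9 members, 22 members carried a Gene Ontology term, and 26 had either. The lists that held the terms were in part made of genes called as changed in these same libraries, and some copies were shortened, so a term names a member here and its absence says nothing. The other members are given by identifier with no role. Opsins (Rh6 and Rh3), complexin and muscle myosin light chain were all among the members, which places eye, nervous tissue and muscle in these heads. Defining genes of fat body and of head glands could not be looked up by name.

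The 100 members held between 19.8% and 23.2% of all counts of a library, and less in no care than in care. Their share was 22.8%, 23.2% and 22.5% in care replicates 1, 2 and 3, and 19.8%, 20.6% and 21.3% in no care replicates 1, 2 and 3. Every care pool was above every no care pool. The means were 22.8% ± 0.348 (SD, n = 3) and 20.6% ± 0.765 (SD, n = 3), a difference of -2.27 percentage points (two-sided exact permutation test, p = 0.1, the smallest that 3 pools against 3 allow). The members were chosen on these same levels. Of them, 16 were in the leading 100 of care only and 8 of no care only. The test therefore describes this list and is not support for a care effect. Fewer cells of a type and less RNA per cell cannot be told apart in such pooled heads, here and in every comparison that follows.

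The cuticle genes that the rule left out moved the other way and entered the same totals. These 4 genes held 0.744%, 2.13% and 0.927% of counts in the care pools and 6.70%, 6.52% and 6.91% in the no care pools. With their counts taken out of the total, the members held 23.1% ± 0.509 (SD, n = 3) in care, against 22.0% ± 0.845 (SD, n = 3) in no care. That difference of -1.08 percentage points was under 50% of the first, and the groups then overlapped (exact permutation test, p = 0.2).

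**Figure D1:**
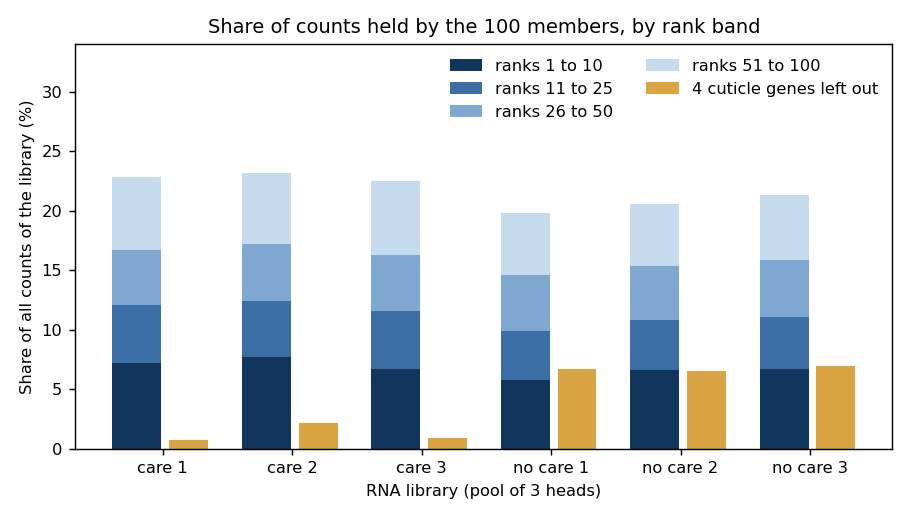
Share of all counts (%, vertical axis) held by the 100 members in each of the 6 RNA libraries, stacked by rank band, with the share of the 4 cuticle genes left out by the rule beside it. The stacked bars reach 22.5% to 23.2% in care and 19.8% to 21.3% in no care, while the cuticle bars reach at most 2.13% in care and at least 6.52% in no care.

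The 10 leading members held 7.23% ± 0.495 of counts in care against 6.39% ± 0.510 in no care (SD, n = 3 each), and these groups overlapped (exact permutation test, p = 0.2). Between 528 and 633 gene models were needed to reach 50% of the counts of a library, cuticle genes included.

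Gains and losses among members partly cancelled. In mean CPM, 61 members were lower in no care and 39 were higher. From care to no care, the lower members together fell by 53273 CPM and the higher ones gained 30619 CPM, so that the members as a whole fell by 22654 CPM. The 5 members with the largest losses fell by 24501 CPM, and the 5 with the largest gains gained 20631 CPM.

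Levels fell off steeply at first and then slowly. Mean CPM was 10539 at rank 1 and 923 at rank 100, an 11.4-fold range. There were 8 members above 5000 CPM, 33 above 2000 CPM, 53 between 1000 and 2000 CPM and 14 at or below 1000 CPM. The edge of the list was shallow. Ranks 98, 99 and 100 were Ccalc.v2_001784, Ccalc.v2_007913 and Ccalc.v2_010632 with mean CPM of 934, 933 and 923. The next 3, just outside, were Ccalc.v2_001619, Ccalc.v2_012481 and Ccalc.v2_014270 with mean CPM of 905, 900.0 and 899.

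The leading transcript differed between treatments. Ccalc.v2_013188 and Ccalc.v2_007617, for which no name was at hand, had nearly the same mean over all pools (10539 and 10533 CPM) from opposite patterns. Ccalc.v2_013188 stood at 15982, 18336 and 16212 CPM in the care pools and at 2556, 4111 and 6036 CPM in the no care pools. It took the first rank in every care pool and fell as low as rank 21 in no care. Ccalc.v2_007617 stood at 5407, 4267 and 2402 CPM in care and at 13608, 19466 and 18046 CPM in no care. It took the first rank in every no care pool, with the cuticle genes left out, and reached only rank 12 by the mean of care.

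Behind these, no member took the first rank in any library. Ccalc.v2_003703 had 7125, 8454 and 7654 CPM in care and 6747, 6480 and 6261 CPM in no care. It lay between rank 2 and rank 4 in every library. Ccalc.v2_014268 had 7604, 6808 and 7083 CPM in care and 5909, 6137 and 7142 CPM in no care, with overlapping groups. It lay between ranks 2 and 6. Ccalc.v2_007618, whose identifier follows that of Ccalc.v2_007617 directly, had 10809, 9285 and 5881 CPM in care and 3318, 6049 and 4996 CPM in no care. Its groups overlapped through no care replicate 2, and the adjusted p of its lower level in no care was 0.0961 in edgeR's quasi-likelihood test (log2 fold change -0.82, SE 0.29).

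Ccalc.v2_005177 and Ccalc.v2_004915 shared a similar place but not a similar spread. Ccalc.v2_005177 had 4726, 9175 and 7370 CPM in care and 7717, 5463 and 5390 CPM in no care, and its lowest and its highest value were both in care pools. Ccalc.v2_004915 had 5680, 5574 and 5647 CPM in care, a CV of 0.963%, and 3848, 4339 and 4934 CPM in no care. The groups of Ccalc.v2_004915 did not overlap, yet its log2 fold change of -0.32 (SE 0.14) had an adjusted p of 0.166 in the same test.

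Ranks were kept well within a treatment and less well between treatments. Over the 100 members, the Spearman rank correlation of CPM was 0.889 to 0.956 for the 6 pairs of libraries of the same group and 0.600 to 0.694 for the 9 pairs of different groups. The median absolute log2 ratio of a member was 0.17 in the median pair of the same group and 0.35 in the median pair of different groups. Over all gene models tested these medians were 0.13 and 0.23. The members are the same genes in each pair and every library enters several pairs, so these values describe the 6 libraries only. Members in the leading 100 of a single group, 16 of care only and 8 of no care only, differ in rank between groups by construction. The lower agreement between groups is thus in part built in.

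Of the 100 members, 63 were among the leading 100 of every library. By group means, 76 were in the leading 100 of both groups, 16 of care only and 8 of no care only. Members that entered through a single group had to be higher in that group. The 10 leading gene models of care and the 10 of no care had 7 in common. The largest moves in rank were those of Ccalc.v2_015268, from rank 45 in care to 729 in no care, of Ccalc.v2_017423, from 486 in care to 16 in no care, and of Ccalc.v2_010501, from 49 in care to 347 in no care.

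**Figure D2:**
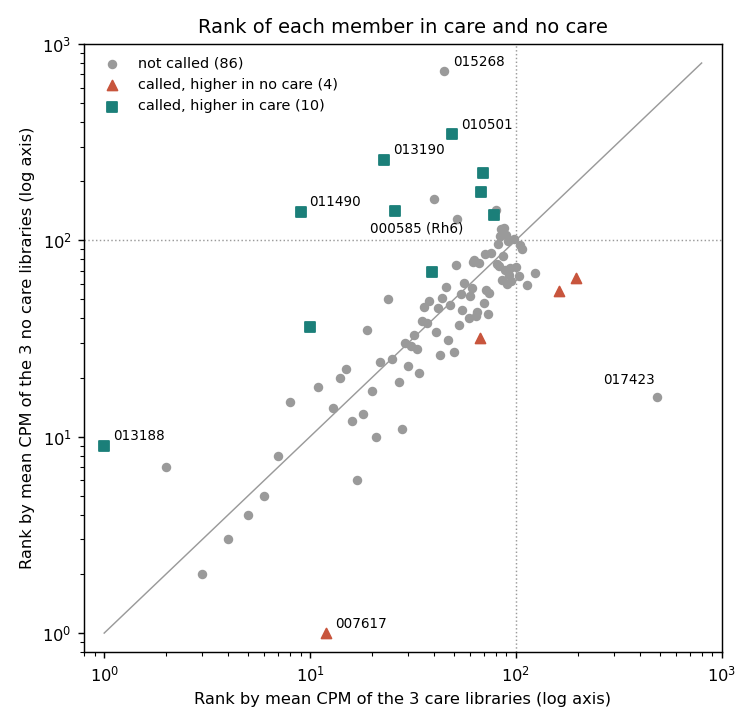
Rank of each of the 100 members by mean CPM of the 3 care libraries (horizontal, log axis) and of the 3 no care libraries (vertical, log axis), with the diagonal of equal rank and dotted lines at rank 100. Members called in the care comparison are coloured, 10 higher in care and 4 higher in no care, and Ccalc.v2_015268 (45 against 729) and Ccalc.v2_017423 (486 against 16) lie farthest from the diagonal without being called.

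Care and no care were compared by edgeR's quasi-likelihood test over all 10763 gene models tested, with a Benjamini-Hochberg adjusted p under 0.01 as a call. There were 14 members called, 10 higher in care and 4 higher in no care. Among all gene models tested, 7.01% were called, 3.3% higher in care and 3.72% higher in no care. All 14 called members had groups without overlap. Among all members 55 had groups without overlap, 32 higher in care and 23 higher in no care, against 38.5% of all gene models tested, 22.3% and 16.2% in these directions. An unadjusted p under 0.05 was found for 43 members, against 31.8% of all.

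Members in the leading 100 through a single group add to these counts by construction. Of the 16 members in the leading 100 of care only, 7 were called higher in care, and of the 8 of no care only, 2 were called higher in no care. Among the 63 members in the leading 100 of every library, 5 were called, 3 higher in care and 2 higher in no care, but that condition in turn leaves out members whose level in either group fell far enough, such as Ccalc.v2_011490 and Ccalc.v2_013190. Neither count is therefore set against the background.

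The log2 fold change, no care over care, was under 0.25 in size for 40 members. The median over members was -0.11, against 0.0031 over all gene models tested, and the median size was 0.31 against 0.24. There were 60 members below 0 and 40 above. Members in the leading 100 of a single group, 16 of care only and 8 of no care only, enter these values by construction. The median, the size and the split therefore describe this list and are not support for a care effect. By rank, 2 of the first 10 members were called, 2 of ranks 11 to 25, 3 of ranks 26 to 50, 1 of ranks 51 to 75 and 6 of ranks 76 to 100. Over all gene models tested 7.01% were called. All 6 in the last band were in the leading 100 of a single group only. The rule thus adds to that count, and the bands show no trend of the care effect with level.

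**Figure D3:**
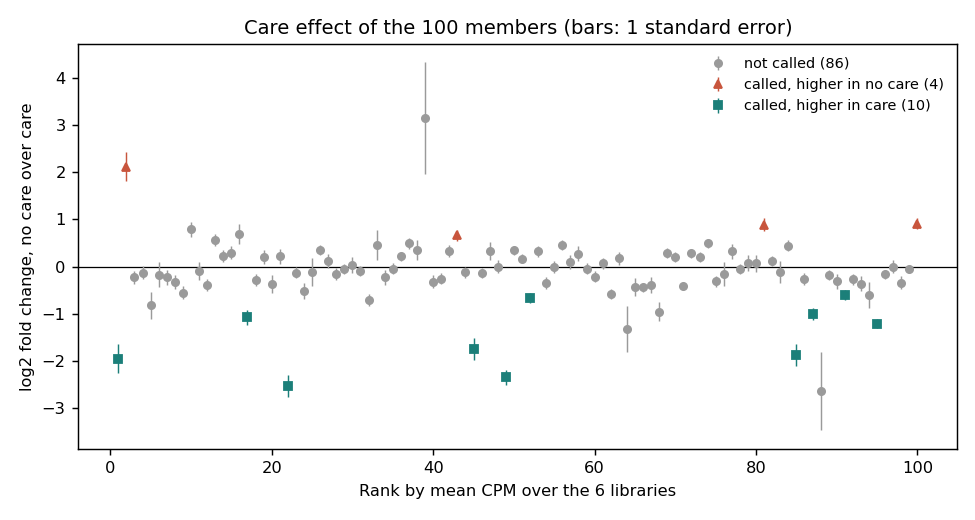
The log2 fold change of each member (vertical, no care over care, bars 1 standard error) against its rank by mean CPM over the 6 libraries (horizontal). Of the 100 members 40 lie within 0.25 of 0, the 14 called members lie between -2.52 and 2.12, and the most extreme values, 3.14 and -2.64, have wide bars and were not called.

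Vision was represented by a pair of opsins. Ccalc.v2_000585 is the reciprocal best hit of Drosophila Rh6, an opsin of the inner photoreceptors of the fly's compound eye, and lies on scaffold 78.2 of the study's assembly between positions 1978957 and 1981556. Its level was 2923, 1843 and 2889 CPM in care and 545, 828 and 841 CPM in no care. All care pools were above all no care pools, and the opsin moved from rank 26 in care to rank 141 in no care. It was thus a member through care only, so its direction, higher in care, was fixed by how it entered. Its fold change and call are given as a description. It was 3.46-fold higher in care (log2 fold change -1.74, SE 0.23, adjusted p = 0.00282), and the call held in 3 of the 6 fits without a single library, with the highest adjusted p, 0.0146, without care replicate 3.

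Ccalc.v2_000288, the best hit of the ultraviolet opsin Rh3 of Drosophila, lies on scaffold 39.2 between positions 3080837 and 3093266. The lists also give it terms of a methyltransferase beside those of an opsin. Its level was 1434, 1301 and 1400 CPM in care and 943, 1006 and 1019 CPM in no care. These groups did not overlap either, but the difference was smaller (log2 fold change -0.44, SE 0.10) and missed the threshold of 0.01 (adjusted p = 0.0198). The study's phototransduction list holds 3 gene models, of which 2 were called higher in care, Ccalc.v2_000585 and Ccalc.v2_000936, and none higher in no care. The median log2 fold change of that list was -0.99. The visual perception list adds Ccalc.v2_000566, which was called higher in no care (log2 fold change 1.06, adjusted p = 0.00472), and the photoreceptor activity list adds Ccalc.v2_004718, at 0.67 with an adjusted p of 0.0261. The study had taken these lists from genes it called in these libraries, so their direction is not independent evidence.

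A synaptic protein, a transmitter receptor and a muscle protein were among the named members, and none of these 3 was called. Ccalc.v2_000532 is the best hit of Drosophila cpx, complexin, which binds the SNARE proteins that fuse synaptic vesicles. Its level was 2823, 2804 and 2751 CPM in care and 3770, 4414 and 3890 CPM in no care. All no care pools were above all care pools. The log2 fold change was 0.56 (SE 0.12), and the adjusted p of 0.0163 in edgeR's quasi-likelihood test missed the threshold while that of edgeR's exact test, 0.00110, passed it. Ccalc.v2_000666, the best hit of a nicotinic acetylcholine receptor subunit of Drosophila (nAChRalpha4), had 1735, 1544 and 1792 CPM in care and 1158, 1467 and 1255 CPM in no care. Its groups did not overlap, at an adjusted p of 0.0925.

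Ccalc.v2_000713, the best hit of Drosophila Mlc2, a regulatory light chain of muscle myosin, was the most abundant member with a name, at rank 7. Its level was 6736, 7262 and 6515 CPM in care and 4959, 5420 and 6663 CPM in no care. No care replicate 3 lay within the care pools, so the groups overlapped (log2 fold change -0.23, SE 0.17, adjusted p = 0.395).

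Mitochondrial ATP synthase makes ATP from the proton gradient that the respiratory chain builds. The 3 members listed under ATP synthesis coupled proton transport were Ccalc.v2_004959, Ccalc.v2_000840 and Ccalc.v2_003212, with mean CPM of 2271, 1533 and 1044 in care and 2407, 1883 and 1073 in no care. Of them, Ccalc.v2_000840 had groups without overlap, with 1417, 1742 and 1440 CPM in care and 1829, 1851 and 1970 CPM in no care (log2 fold change 0.33, SE 0.13, adjusted p = 0.132). None of the 10 tested gene models of that list was called in either direction, and their median log2 fold change was 0.12.

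Ccalc.v2_010103, listed under oxidative phosphorylation and electron carrier activity, had 1535, 1372 and 1436 CPM in care and 1111, 1238 and 1309 CPM in no care. Ccalc.v2_000464, the best hit of Mpcp1, a mitochondrial phosphate carrier in Drosophila, had 1353, 1516 and 1343 CPM in care and 1323, 1403 and 1667 CPM in no care. Neither was called (adjusted p of 0.253 and 0.682). Ccalc.v2_000215, the best hit of Nc73EF, a 2-oxoglutarate dehydrogenase of the citric acid cycle in Drosophila, had 1359, 1219 and 1325 CPM in care and 966, 978 and 933 CPM in no care. Its groups did not overlap, and its log2 fold change of -0.40 (SE 0.089) had an adjusted p of 0.0199, just above the threshold.

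Ccalc.v2_000319 is the best hit of Drosophila pAbp, the poly(A) binding protein of messenger RNA. Its level was 2921, 3384 and 3192 CPM in care and 3602, 3522 and 3692 CPM in no care, with no overlap but a small difference (log2 fold change 0.22, SE 0.12, adjusted p = 0.261). Ccalc.v2_006597, listed under the cytosolic small ribosomal subunit, had 1018, 907 and 928 CPM in care and 819, 862 and 1094 CPM in no care, with a log2 fold change of 0.0021 (SE 0.14). Its sign changed with the scaling, as in library size scaling (-0.040). Ccalc.v2_010181, listed under ATP-dependent helicase activity, had overlapping groups and an adjusted p of 0.433.

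The 3 members listed under iron ion binding are given next. The part at hand of the study's heme binding list, of which 1 is a member, had 24 gene models tested. Of these, 8 were called higher in no care and 8 higher in care, against 3.72% and 3.3% of all gene models tested. Such lists were in part made of genes called in these same libraries, so these counts are not independent evidence. Ccalc.v2_011490 is listed under monooxygenase activity, heme binding and iron ion binding, terms that enzymes such as the cytochrome P450s carry. Its level was 4189, 4725 and 4139 CPM in care and 568, 1004 and 645 CPM in no care. It held rank 9 in care and rank 140 in no care. The difference was 5.89-fold (log2 fold change -2.52, SE 0.23, adjusted p = 0.000838) and was called without each library in turn.

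Ccalc.v2_015268, listed under iron ion binding and an oxidoreductase activity, had 1596, 1655 and 1836 CPM in care. In no care it had 23.7, 446 and 321 CPM, and replicate 1 lay far under the others. The groups did not overlap and the log2 fold change was -2.64, but its SE was 0.83 and its adjusted p 0.0673. Only 1 of the 6 fits without a single library gave a call, that without no care replicate 1 (log2 fold change -2.09, adjusted p = 0.000956). That fit leaves out the pool that lay apart, so it is not support for a difference. The highest adjusted p of these fits was 0.146, without care replicate 3. Ccalc.v2_005790, also listed under iron ion binding, had 1287, 1023 and 1195 CPM in care and 786, 792 and 690 CPM in no care. It was called lower in no care (log2 fold change -0.59, SE 0.11, adjusted p = 0.00867), a call that was lost when counts were scaled by library size only (adjusted p = 0.0104). Like Ccalc.v2_011490, both Ccalc.v2_015268 and Ccalc.v2_005790 were members through care only, so their direction was fixed by how they entered.

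**Figure D4:**
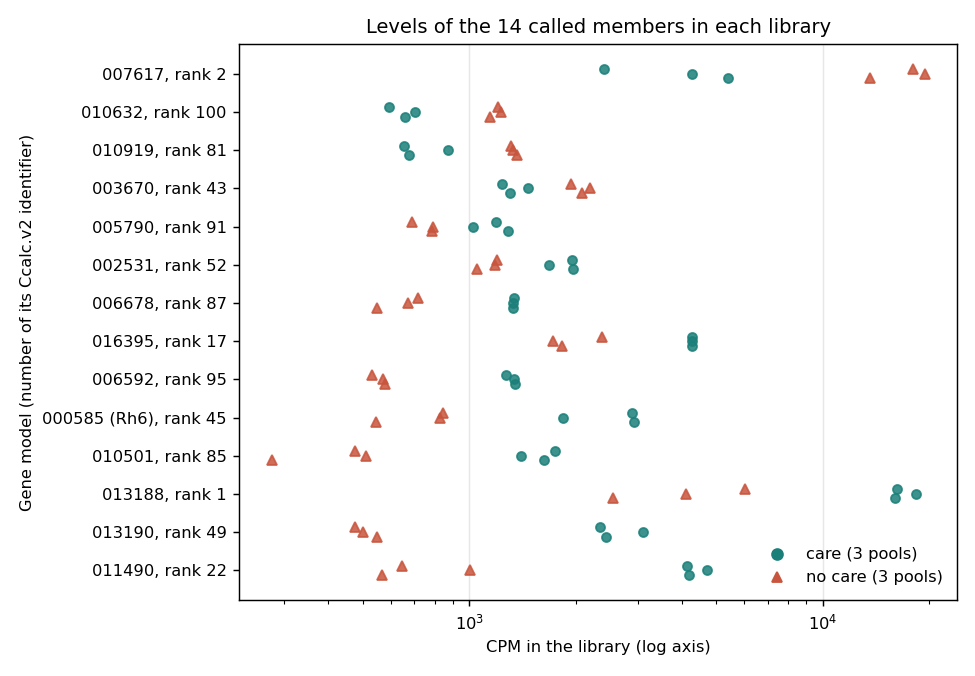
CPM of the 14 called members in each library (horizontal, log axis), 3 care pools as circles and 3 no care pools as triangles, ordered by log2 fold change. No member has overlapping groups, and Ccalc.v2_007617 at the top (2402 to 5407 CPM in care, 13608 to 19466 in no care) and Ccalc.v2_011490 at the bottom (4139 to 4725 in care, 568 to 1004 in no care) are farthest apart in each direction.

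Both leading members were among the calls. Ccalc.v2_013188 was 3.98-fold higher in care (log2 fold change -1.95, SE 0.31, adjusted p = 0.00580), although its no care pools spread widely, with a CV of 41.2% against 7.71% in care. Ccalc.v2_007617 was 4.23-fold higher in no care (log2 fold change 2.12, SE 0.31, adjusted p = 0.00423). The call of Ccalc.v2_013188 held in 2 and that of Ccalc.v2_007617 in 4 of the 6 fits without a single library, and both had their highest adjusted p, 0.0255 and 0.0154, without no care replicate 2.

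Ccalc.v2_013190 is listed under glucosylceramidase activity, the cleavage of glucose from a membrane sphingolipid, and its identifier lies 2 after that of Ccalc.v2_013188. Its level was 2445, 3103 and 2339 CPM in care and 548, 500 and 475 CPM in no care. The groups were far apart, the rank went from 23 in care to 257 in no care, and the log2 fold change of -2.34 (SE 0.15) had an adjusted p of 0.000272. Where positions were at hand, identifiers followed the order along the assembly in 820 of 822 steps, but the positions of this pair were not at hand, and whether reads could be assigned to both was not tested.

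Ccalc.v2_006592, a member with no name, had the smallest SE of the 14 called members. Its level was 1351, 1340 and 1269 CPM in care and 578, 570 and 531 CPM in no care. The log2 fold change was -1.20 (SE 0.092, adjusted p = 0.000409). Ccalc.v2_006592, Ccalc.v2_011490 and Ccalc.v2_013190 were the 3 members called in all 6 fits without a single library, against 1.43% of all gene models tested. All 3 were in the leading 100 of care only, so that their direction, higher in care, was fixed by how they entered.

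The other members called higher in care lost their calls without 1 or more of the libraries. Ccalc.v2_010501 had 1633, 1404 and 1750 CPM in care and 277, 510 and 477 CPM in no care (log2 fold change -1.88, SE 0.23, adjusted p = 0.00224), and lost its call only without care replicate 3 (adjusted p = 0.0115). Ccalc.v2_016395 had 4262, 4279 and 4260 CPM in care, the smallest CV of any member in a group (0.243%), and 1831, 1727 and 2379 CPM in no care. The care CV was below the 0.329% that counting alone would give at its mean level. Its log2 fold change was -1.07 (SE 0.16), with an adjusted p of 0.00449, and it stayed called only without no care replicate 3. Ccalc.v2_006678 was as tight, with 1332, 1329 and 1339 CPM in care and 549, 670 and 715 CPM in no care (log2 fold change -1.01, SE 0.13, adjusted p = 0.00254). Both of these members varied far more between no care pools than between care pools. Ccalc.v2_002531, listed under hydrolase activity on ester bonds, was lower in no care by a smaller amount (log2 fold change -0.66, SE 0.11, adjusted p = 0.00709). Ccalc.v2_006678 was called in 3 of the 6 fits without a single library, and Ccalc.v2_002531 and Ccalc.v2_005790 in 1 each. Of the members in this paragraph, Ccalc.v2_010501, Ccalc.v2_006678 and Ccalc.v2_005790 were members through care only, so their direction was fixed by how they entered.

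Beside Ccalc.v2_007617, 3 members were called higher in no care, and none exceeded 1 on the log2 scale. Ccalc.v2_010632, the last member by rank, had 658, 702 and 595 CPM in care and 1147, 1231 and 1207 CPM in no care (log2 fold change 0.91, SE 0.11, adjusted p = 0.00218). Ccalc.v2_010919, listed under extracellular matrix, had 675, 874 and 656 CPM in care and 1362, 1329 and 1310 CPM in no care (log2 fold change 0.89, SE 0.14, adjusted p = 0.00570). Ccalc.v2_003670, listed under ion transport and plasma membrane, had 1307, 1471 and 1239 CPM in care and 2080, 2199 and 1944 CPM in no care (log2 fold change 0.67, SE 0.12, adjusted p = 0.00891). In all 3, every no care pool was above every care pool, at less than 2-fold. Ccalc.v2_010632 and Ccalc.v2_010919 were in the leading 100 of no care only, so their direction was fixed by how they entered. Ccalc.v2_010632 was called in 4 of the 6 fits without a single library and the other two in 1 each.

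Ccalc.v2_009991, at rank 10 and listed under cation transport and nucleoside-triphosphatase activity, lay just past the threshold. Its level was 3071, 3261 and 2906 CPM in care and 5813, 5662 and 4167 CPM in no care. The groups did not overlap, with a log2 fold change of 0.79 (SE 0.15) and an adjusted p of 0.0114. Of the 6 fits without a single library, only that without no care replicate 3, its lowest no care pool, gave a call (adjusted p = 0.00439). Of the 9 called members that exceeded 1 on the log2 scale, 8 were higher in care and 1 was higher in no care, and 6 of the 8 were members through care only, which fixes their direction. Among all gene models tested, 3.16% were called and exceeded that size.

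The number of called members changed when single libraries were left out. Each such fit also had fewer pools in a group, and that was not told apart from the library left out. Without care replicate 1, 5 members were called (2.56% of all gene models tested), without care replicate 3 there were 4 (1.6%) and without no care replicate 2 there were 5 (3.04%), each of them among the 14. Without care replicate 2 there were 12 (5.5%), without no care replicate 1 there were 10 (3.25%) and without no care replicate 3 there were 15 (10.3%). The 14 members kept the direction of their difference in each of these fits.

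The choice of test moved the count of members and the background together. The exact test of edgeR, which the study used, called 25 members against 13.2% of all gene models tested. DESeq2 called 33 against 15.1%, and an adjusted p of 0.05 in the quasi-likelihood test called 27 against 16.9%. Other scalings moved the count little, with 15 members called on library size (7.27% of all), 16 with upper quartile scaling (7.19%), 14 with the size factors of DESeq2 (7.06%) and 15 with factors from the other gene models alone (7.24%). A filter of at least 3 libraries gave 14 (7.11%) and no filter gave 19 (5.87%).

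The spread between pools was modest for most members. The median CV was 7.69% over the care pools and 10.03% over the no care pools, against 9.08% and 12.5% over all gene models tested. The values over all gene models tested include more counting error (median 3.62%). Averaged over both groups, the median member had a CV of 9.62%, close to 9.04% for the next 100 gene models by level. For the next 900 gene models by level it was 8.07%, below that of the members. The median was well above counting error, which was at most 0.605% for any member. There were 36 members with a CV under 10% in both groups and 13 with a CV above 30% in either. The care pools had the larger CV in 41 members.

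A few members varied widely between pools of the same treatment. Ccalc.v2_017423 had 37.4, 1001 and 53.1 CPM in care and 4095, 2495 and 3113 CPM in no care. A single care pool, replicate 2, stood far above the other care pools, and the CV in care was 152%. All no care pools were above all care pools, with the largest log2 fold change of any member, 3.14, but its SE was 1.18 and its adjusted p 0.111. Without care replicate 2 the log2 fold change was 6.22, with an adjusted p of 0.000303. Only that 1 of the 6 fits without a single library gave a call. It leaves out the care pool that lay apart, so it is not support for a difference. Ccalc.v2_017423 was a member through no care only, so its direction was fixed by how it entered. Ccalc.v2_000414 had 872, 2062 and 2399 CPM in care and 454, 451 and 1154 CPM in no care. Its groups overlapped, and its CV was 45.1% and 59.0%.

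The steadiest members by the mean of both CVs were Ccalc.v2_010658 (1.83%), Ccalc.v2_003765 (2.11%) and Ccalc.v2_004224 (2.76%). Ccalc.v2_010658, listed under calcium ion binding, had 1777, 1772 and 1751 CPM in care and 1977, 2068 and 1961 CPM in no care. Its groups did not overlap, at a log2 fold change of 0.22 (SE 0.098) and an adjusted p of 0.175. Ccalc.v2_003765 lay between ranks 95 and 106 in every library. Ccalc.v2_004224 had 905, 923 and 924 CPM in care and 1298, 1198 and 1287 CPM in no care, a log2 fold change of 0.50 (SE 0.095) with an adjusted p of 0.0114. This gene model was a member through no care only, so its direction was fixed by how it entered.

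**Figure D5:**
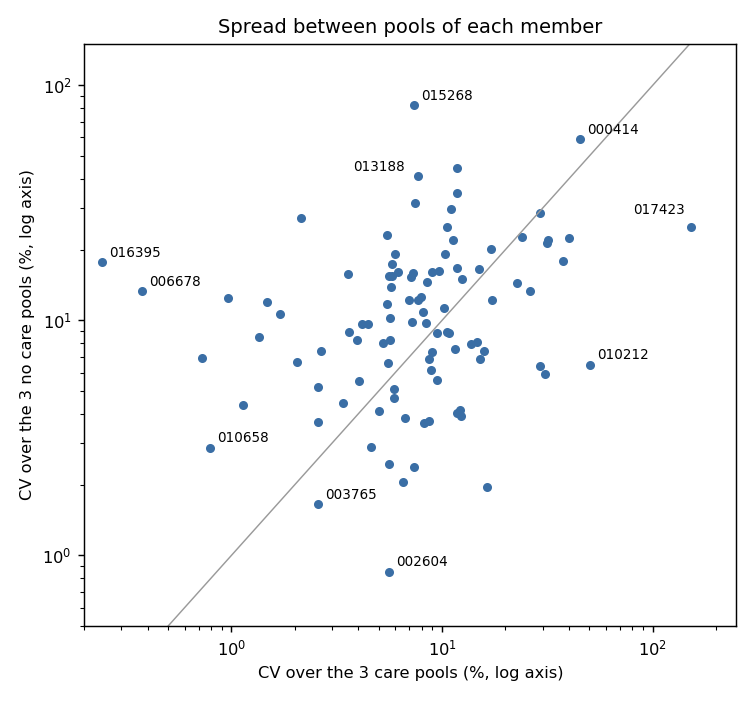
CV of each member's CPM over the 3 care pools (horizontal, %, log axis) and over the 3 no care pools (vertical, %, log axis), with the line of equal CV. Most members lie below 30% on both axes, Ccalc.v2_017423 reaches 152% in care, and Ccalc.v2_016395 has the smallest value, 0.243% in care.

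Positions on the assembly were at hand for 10 members, which allowed their DNA methylation to be read from the 6 bisulfite libraries, each a pool of 9 heads. These files list only CpGs that were methylated above background in at least 1 library, so levels are over listed CpGs and not over all CpGs of a gene. Of the 10 members, 9 held at least 1 listed CpG and 6 held at least 10, against 72.7% and 42.8% of the 823 gene models with a position. Over those with 10 or more, the median level in care was 14.6% for the members and 25.4% for the 823 gene models.

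The called opsin was almost without listed CpGs. Ccalc.v2_000585 (Rh6) held a single listed CpG, and Ccalc.v2_000532 (complexin) also held 1. Ccalc.v2_000464 (Mpcp1) held the most, 158 listed CpGs, at 23.4% ± 1.48 in care against 22.7% ± 0.790 in no care (SD, n = 3 each). Ccalc.v2_000288 (Rh3) held 112, at 24.9% ± 2.80 and 22.0% ± 3.05. In both genes the groups overlapped.

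Of the 6 members with at least 10 listed CpGs, 2 had groups without overlap, against 21.3% of the 352 gene models that could be compared. Ccalc.v2_000713 (Mlc2, scaffold 78.2, positions 3349009 to 3355182) held 49 listed CpGs at 14.2%, 13.0% and 12.8% in care and 9.97%, 8.01% and 10.7% in no care, on 949 to 1805 reads a library. Its RNA level was not called in the care comparison. Ccalc.v2_000686 held 20 listed CpGs at 1.29% ± 0.480 in care and 2.24% ± 0.481 in no care.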

How the data were processed

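RNA was measured in 6 head libraries (3 care, 3 no care, 3 heads each). Per the labels and the study's methods, the authors trimmed reads with Trimmomatic 0.32, aligned them with TopHat and counted them per gene model with featureCounts, and the deposited values are raw counts. How reads that fit several or overlapping gene models were counted, and whether strand was used, is not given in the sources used here, so near-identical or overlapping members are uncertain. The deposited bisulfite values (Bismark 0.14.5) are the read count covering each listed CpG and the percent methylated.

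CPM used the library total. A gene model was tested where over 3 libraries exceeded 0.18 CPM (4.82 to 5.74 counts), with edgeR 4.0.16 under R 4.3.3 (TMM scaling, quasi-likelihood fit, Benjamini-Hochberg adjustment over all 10763, threshold 0.01). Fold changes are no care over care, and an SE is the size of the log2 fold change over the square root of F. Other settings tried were DESeq2 1.42.0, the exact test of edgeR, further scalings and filters, an adjusted p of 0.05, a block on replicate number, leaving out each library, and other lists of members. The fits to counts were tested on simulated data. The columns of the deposited tables were all mapped to samples, and CpGs with coverage of 0 or above 170 reads in any library were left out.

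The members, the lists of genes and the tests were chosen with earlier results of these data known. Members named are the first 10 by level, the called members with the largest rises and falls without overlap (up to 8 each), the 3 with the largest and 3 with the smallest CV, the 3 with the largest rank change, the 3 on each side of rank 100, and those with a name or term from the study's lists. Members outside this rule are not named singly except Ccalc.v2_007620 and Ccalc.v2_016398 below, chosen after their values were seen. Of the lists looked up, none of the members was in those for structural constituent of cuticle, structural constituent of ribosome, translation, translational elongation, protein folding or neurotransmitter:sodium symporter activity, and some of these lists were shortened copies. No pair of libraries agreed within counting noise.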

Additional observations from a re-analysis of the deposited data

How the results depend on the processing

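Of the 14 members called, all kept their direction under every test, scaling, filter and left-out library tried. More members were called by edgeR's exact test (25), by DESeq2 (33) and at an adjusted p of 0.05 (27), and the calls over all gene models rose likewise from 755 to 1420, 1630 and 1818. Fewer were called with the replicate number as a block, 7 members and 371 gene models. The study gives no pairing by these numbers, and its bees came from different nests. Over all gene models tested, same-numbered care and no care libraries had deviations from their group means that correlated at -0.047, -0.067 and 0.11. Libraries of other numbers ran from -0.079 to 0.15. So few values cannot exclude a pairing. Other scalings and filters gave 14 to 19 members. Leaving out 1 library gave 4 to 15 members and 172 to 1109 gene models. The leading 50 held 7 calls, the leading 200 held 28, and the members in the leading 100 of every library, a list chosen after seeing the data, held 5. The lists differ in length or the fits in libraries and test, and beyond that the cause was not tested. Leaving out 1 library moved the median log2 fold change of the members between -0.15 and -0.071, their median CV between 6.71% and 10.3%, and the difference in share between -2.64 and -1.87 percentage points. With the replicate block the difference in share was -2.27 (exact sign-flip test, p = 0.25, the smallest 3 pairs allow). Mean CPM of care alone or of no care alone gave lists with 92 and 84 of the members, and other rankings gave 96 to 100. The direction of the calls turned with these lists. The list by care held 17 calls, 15 higher in care and 2 higher in no care. The list by no care held 13 calls, 3 higher in care and 10 higher in no care. The balance of directions among the calls therefore depends on how the list was ranked. Signs turned for 4 of the members named by the rule, with differences near 0. The sign of Ccalc.v2_007620, named below, also turned, from -0.38 to 0.19 over the left-out libraries. Ccalc.v2_005177 ran from -0.40 to 0.090 (positive without care replicate 2), Ccalc.v2_000464 from -0.029 (without no care replicate 3) to 0.19, and Ccalc.v2_003212 to -0.033 without care replicate 1 and -0.053 without no care replicate 3, with a highest value of 0.25. Ccalc.v2_006597 went to -0.040 with library size only, -0.0024 with upper quartile scaling, -0.00040 with no filter, -0.014 with the replicate block, and ran from -0.16 to 0.10 over the left-out libraries, negative without no care replicate 3 (-0.16), without the third care library (-0.022) and without the second (-0.0072). The cause was not tested. Counting error of a member was at most 0.605%.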

Other observations

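Some members lie close together by identifier. Ccalc.v2_007617, Ccalc.v2_007618 and Ccalc.v2_007620 are separated by 1 and 2 steps and all rank among the first 25, yet their ratios of mean CPM, no care over care, were 4.23, 0.553 and 0.908. Ccalc.v2_013188 and Ccalc.v2_013190 had ratios of 0.251 and 0.193. Ccalc.v2_016395 and Ccalc.v2_016398 had ratios of 0.464 and 0.786. Whether such neighbours are copies of each other could not be read from the values used here.

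Across the 6 pools, the lowest value of a member fell most often in no care replicate 1 (31 members), and the highest most often in care replicate 1 (24 members).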
